A study of Mus musculus with 12 samples.

Results

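In all, 5 genes of the lymphocyte antigen 6 (Ly6) family were followed in M2-like bone marrow-derived macrophages (BMDM) with and without interferon beta (IFNβ): Ly6a, Ly6c1, Ly6c2, Ly6e and Ly6i. They were taken as a list of gene symbols, and each symbol matched 1 of the 56748 Ensembl genes listed. Of the 5 members, 3 (Ly6a, Ly6c1 and Ly6e) passed the filter on low counts and were among the 15033 genes tested. Ly6c2 and Ly6i did not pass it, and are described by their counts. The cells came from marrow of female wild-type C57BL/6J mice that had been bought at 10 to 12 weeks of age, were grown in M-CSF (20 ng/mL) and then polarized with interleukin-4 (10 ng/mL for 48 hours) in all 4 conditions. For the next 72 hours they received either plain medium (untreated control), supernatant of YUMM5.2 eGFP cells (eGFP supernatant), supernatant of YUMM5.2 Ifnb1eGFP cells set to 1500 pg/mL IFNβ (Ifnb1eGFP supernatant) or recombinant IFNβ of equal concentration (rIFNβ). The supernatants came from YUMM5.2, a line of mouse melanoma cells, which carried either a Tet-On Ifnb1 gene joined to eGFP or Tet-On eGFP without Ifnb1. Both had been given doxycycline (1 µg/mL, 72 hours) to switch these on, and the eGFP supernatant was diluted like its counterpart, while the labels name no doxycycline for the medium of the untreated control or rIFNβ. There were 3 libraries per condition, and no label says whether these came from separate mice or cultures, so p-values measure the spread between these libraries, which may be technical.

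Ly6 proteins are small cell-surface proteins with a disulfide-rich uPAR-type domain, held in the membrane by a glycosylphosphatidylinositol (GPI) anchor. Ly6C, the protein of the near-identical genes Ly6c1 and Ly6c2, is the antigen by which inflammatory mouse monocytes are told from patrolling ones, and its level falls as monocytes mature into macrophages. Ly6a encodes Sca-1, a marker of hematopoietic stem cells that is also carried by lymphocytes and endothelium, and Ly6e encodes an interferon-induced protein known for its effects on viral entry.

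The 5 members lie in 1 cluster on mouse chromosome 15, with Ly6e on the plus strand and the other 4 on the minus strand. In GRCm39 with GENCODE annotation, Ly6e is at chr15:74826860-74847454, Ly6i at chr15:74851383-74855279, Ly6a at chr15:74863840-74869880, Ly6c1 at chr15:74915847-74920686 and Ly6c2 at chr15:74980003-74988467, a span of 161.608 kb. Their sequences differ widely in how alike they are, which bears on how reads can be assigned. The annotated coding sequences of Ly6c1 and Ly6c2, 393 bases each, were 97.71% identical, with 9 differing bases. Ly6a and Ly6i, 402 bases each, were 86.32% identical, and Ly6a was 81.84% identical to Ly6c1. Ly6e was the distant member, with 48.33% to 50.24% identity to the other 4. Of the distinct 75-base stretches in all annotated transcripts of Ly6c1, 21.64% also occurred in those of Ly6c2, against 5.17% in Ly6a and 0% in Ly6e. Only 0.52% of the stretches of Ly6i occurred in Ly6a. The length of 75 bases was a choice made here, since the read length was not given in the sources used here.

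The first 120 coding bases of Ly6c1 and Ly6c2 are shown because the read counts of these genes depend on telling them apart. Capitals mark the 6 bases at which they differ.
Ly6c1: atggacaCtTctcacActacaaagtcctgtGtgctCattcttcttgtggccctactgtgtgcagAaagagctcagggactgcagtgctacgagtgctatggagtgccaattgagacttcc
Ly6c2: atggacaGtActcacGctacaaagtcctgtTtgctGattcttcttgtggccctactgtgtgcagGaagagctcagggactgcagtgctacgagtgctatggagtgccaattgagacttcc
Coding bases 168 to 287 of Ly6a and Ly6i are shown as the 120 aligned bases with the most differences in that pair. The capitals again mark differing bases, here 38 of them.
Ly6a: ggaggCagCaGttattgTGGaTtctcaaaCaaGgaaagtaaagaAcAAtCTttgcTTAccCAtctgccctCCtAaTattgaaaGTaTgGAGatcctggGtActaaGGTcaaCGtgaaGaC
Ly6i: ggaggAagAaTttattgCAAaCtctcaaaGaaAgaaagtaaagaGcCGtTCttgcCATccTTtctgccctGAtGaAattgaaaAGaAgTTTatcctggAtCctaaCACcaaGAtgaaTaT
The sets show how few positions separate the Ly6c copies and how many separate Ly6a from Ly6i.

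Promoter sequence from RefSeq (GRCm38.p6, minus strand, a build other than that of the gene positions above) was matched for 2 of the 5 members. For Ly6c1 and Ly6c2 the bases before the outermost annotated start are given, since both genes were higher with IFNβ, at chr15:75048921-75049087 (167 bases) and chr15:75112067-75112221 (155 bases). Over the 136 aligned columns between the ends of both stretches 99 were identical (72.79%), and capitals mark the differing bases within them.
Ly6c1 promoter: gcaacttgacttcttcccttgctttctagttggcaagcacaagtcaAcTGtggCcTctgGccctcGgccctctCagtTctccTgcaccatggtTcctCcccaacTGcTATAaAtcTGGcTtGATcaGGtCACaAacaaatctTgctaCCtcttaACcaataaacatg
Ly6c2 promoter: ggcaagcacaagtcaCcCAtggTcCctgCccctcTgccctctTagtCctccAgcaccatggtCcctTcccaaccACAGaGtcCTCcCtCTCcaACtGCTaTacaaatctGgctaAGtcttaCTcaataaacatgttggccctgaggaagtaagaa
No match to the core of the interferon-stimulated response element (GAAA, any 2 bases, GAAA), to the gamma-activated site (TTC, any 3 bases, GAA) or to the STAT6 site (TTC, any 4 bases, GAA) was found on either strand of the 4 promoter windows of these genes, each 300 bases long. Of 32851 promoter windows of that length, 3.443% held the first, 8.298% the second and 6.953% the third. These counts say only which letters stand in the windows.

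The libraries held 31526034 to 45348457 counts, and the medians of the conditions ran from 34493183 to 41015507. All 13 macrophage markers were detected, with a summed level of 12526 to 20250 CPM (counts per 1000000 counts, on library sizes scaled by edgeR's TMM factors). The T and NK cell markers Cd3d and Cd3e had 0 or 1 count in every library, the erythroid genes Hba-a1 and Hbb-bs likewise, and the neutrophil marker Ly6g, itself a Ly6 gene, 0 to 3 counts. One library stood apart from its group: replicate 2 of the eGFP supernatant held the highest level of the group for 20 of 20 interferon-stimulated genes that were listed and detected, with a median of 58.4 CPM, where the other libraries of the group had 15.5 and 7.59 CPM. Results that rest on this library are given with and without it.

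Ly6e was the most abundant member in every library and rose with IFNβ from either source (plot of the level by library). Its level was 17.4, 12.8 and 14.3 CPM in the untreated control libraries and 18.2, 28.4 and 17.9 CPM in the eGFP supernatant libraries. With Ifnb1eGFP supernatant it was 1240, 1214 and 1340 CPM, and with rIFNβ 1334, 1213 and 1327 CPM. The 6 exposed libraries lay within a narrow band far above the 6 unexposed ones, and the high eGFP value belonged to replicate 2. The means were 14.8 ± 2.35 CPM (SD, n = 3) in the untreated control, 21.5 ± 5.99 in eGFP supernatant, 1265 ± 66.1 in Ifnb1eGFP supernatant and 1291 ± 68.1 in rIFNβ. The log2 fold change (LFC) was 5.88 (SE 0.191, 58.7-fold) for Ifnb1eGFP against eGFP supernatant, with a Benjamini-Hochberg adjusted p of 9.06e-10 in the quasi-likelihood test of edgeR. For rIFNβ against untreated control it was 6.45 (SE 0.197, 87.2-fold, adjusted p = 4.63e-10 by the same edgeR test). Without replicate 2 of the eGFP supernatant the first LFC was 6.13.

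**Figure D1:**
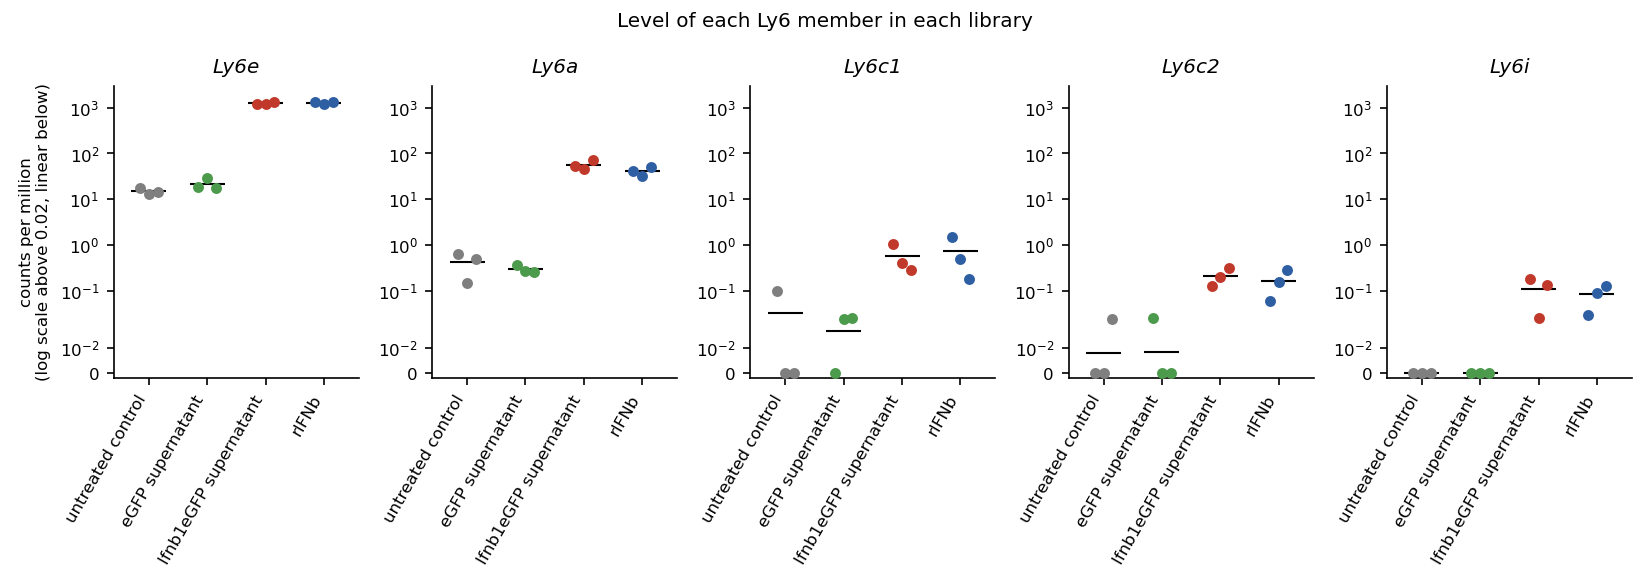
Level of each Ly6 member in each library, in CPM on an axis that is logarithmic above 0.02 and linear below it. Points are libraries, 3 per condition, and black lines are the means of the conditions. Ly6e lies between 1213 and 1340 CPM in the 6 libraries with IFNβ, and Ly6i is at 0 in the 6 without it.

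Ly6a went from near the limit of detection to a well-detected transcript. The counts were 20, 5 and 21 in the untreated control and 14, 11 and 10 in the eGFP supernatant, which is 0.146 to 0.636 CPM. They were 2119, 1804 and 3271 with Ifnb1eGFP supernatant (53.6, 44.8 and 71.0 CPM) and 1391, 1441 and 1983 with rIFNβ (41.3, 32.4 and 50.1 CPM). The exposed and unexposed libraries did not overlap, while the ranges of the IFNβ conditions did. The mean rose from 0.291 ± 0.0550 CPM (SD, n = 3) in eGFP supernatant to 56.5 ± 13.4 CPM in Ifnb1eGFP supernatant, an LFC of 7.59 (SE 0.333, adjusted p = 7.67e-09, edgeR). From untreated control to rIFNβ it rose from 0.426 ± 0.252 to 41.3 ± 8.85 CPM, an LFC of 6.59 (SE 0.323, adjusted p = 1.57e-08, edgeR). Among the 15033 genes ordered by LFC, Ly6a had rank 21 for Ifnb1eGFP against eGFP supernatant and rank 57 for rIFNβ against untreated control. Ly6e had ranks 51 and 61. Ly6c1 could enter this order only by being high with IFNβ, so nothing is read from its ranks (79 and 123).

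Of the Ly6C genes, Ly6c1 was called higher and Ly6c2 was too low to enter the test. Ly6c1 had 3, 0 and 0 counts in the untreated control and 0, 1 and 1 in eGFP supernatant. It had 41, 16 and 13 counts with Ifnb1eGFP supernatant and 51, 22 and 7 with rIFNβ. Every exposed library held more Ly6c1 counts than any unexposed one, but the spread within the exposed conditions was wide, with 0.572 ± 0.406 CPM (SD, n = 3) in Ifnb1eGFP supernatant and 0.728 ± 0.698 CPM in rIFNβ. The LFC was 4.85 (SE 1.24, adjusted p = 0.00616, edgeR) for Ifnb1eGFP against eGFP supernatant and 4.51 (SE 1.16, adjusted p = 0.00602) for rIFNβ against untreated control. As a ratio of summed counts this was 33.5 (70 against 2 counts, 95% exact interval 8.93 to 282) and 24.4 (80 against 3 counts, 8.07 to 121). Without replicate 1 of the untreated control, which holds all 3 counts of its group, the second LFC was 7.84, a value set against libraries at 0 that depends on the prior count, and without replicate 1 of rIFNβ it was 3.45. Without replicate 1 of Ifnb1eGFP supernatant the first LFC was 4.07. These intervals cover counting error only.

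Ly6c2 had 1 count in all 3 untreated control libraries together and 1 in the eGFP supernatant libraries. With Ifnb1eGFP supernatant it had 5, 8 and 14 counts, and with rIFNβ 2, 7 and 11. No exposed library was as low as the unexposed ones. The ratio of summed counts was 25.8 (95% exact interval 4.26 to 1058) for Ifnb1eGFP against eGFP supernatant and 18.3 (2.93 to 760) for rIFNβ against untreated control. In a fit with no filter on low counts, Ly6c2 had an LFC of 4.21 (SE 0.979, adjusted p = 0.00179) and 3.79 (SE 1.03, adjusted p = 0.00654, edgeR).

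The Ly6C copies shared reads, as seen in the deposited values. In 6 of 6 exposed libraries the expected count of Ly6c1 or Ly6c2 held a fraction, while in 5 of 6 the sum of both was whole within 0.02 counts. In replicate 1 with rIFNβ, for example, 51.38 counts were given to Ly6c1 and 1.62 to Ly6c2. The share of Ly6c1 in the summed counts was 89.1% (95% exact Clopper-Pearson interval 76.4 to 96.4), 66.7% (44.7 to 84.4) and 48.1% (28.7 to 68.1) in the libraries with Ifnb1eGFP supernatant. With rIFNβ it was 96.2% (87.0 to 99.5), 75.9% (56.5 to 89.7) and 38.9% (17.3 to 64.3). In both conditions the intervals of replicates 1 and 3 did not overlap, with Ly6c1 prevailing in the first and neither copy clearly in the other. Whether this split between copies differs with IFNβ could not be tested, because the unexposed libraries held 0 to 3 counts of both genes. The sum of Ly6c1 and Ly6c2 does not depend on the split between these copies. It rose from 0.0249 ± 0.000477 to 0.782 ± 0.330 CPM (SD, n = 3) between eGFP and Ifnb1eGFP supernatant, an LFC of 4.80 (SE 0.785, adjusted p = 0.000299, edgeR). Between untreated control and rIFNβ it rose from 0.0397 ± 0.0497 to 0.893 ± 0.596 CPM (LFC 4.45, SE 0.751, adjusted p = 0.000367, edgeR). In unexposed libraries the sum was at most 0.0954 CPM, below the filter's cutoff of 0.251 CPM. Like Ly6c1, it could enter the test only by being high with IFNβ, so nothing further is read from these calls. Reads shared with Ly6a can still bear on this sum. In replicate 2 with rIFNβ the sum was 29.24 counts and Ly6a had 1440.76, while all 5 members together had a whole 55398. How much such reads add to the sum was not tested.

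**Figure D2:**
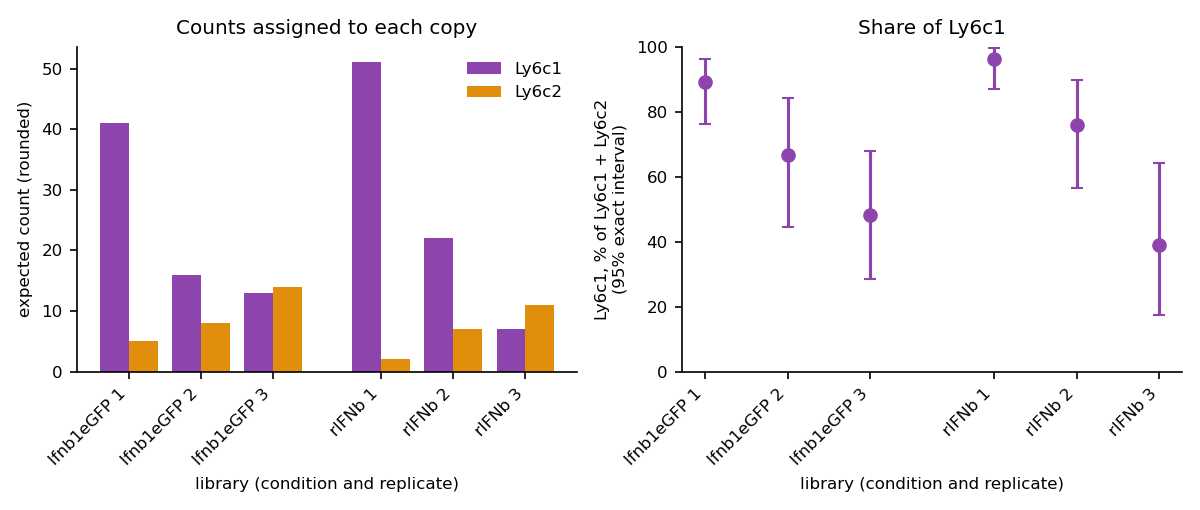
Left, expected counts (rounded) assigned to Ly6c1 and Ly6c2 in the 6 libraries with IFNβ. Right, the share of Ly6c1 in the sum of both genes in percent, with 95% exact intervals that cover counting error only. The share is above 89% in replicate 1 of both conditions and under 49% in replicate 3 of both.

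Ly6i was at 0 counts in 6 of 6 unexposed libraries. It had 7, 1 and 6 counts with Ifnb1eGFP supernatant and 1, 4 and 5 with rIFNβ, so each exposed library held at least 1 count. A floor of 3 counts over the unexposed group was 0.0249 CPM for eGFP supernatant and 0.0278 CPM for untreated control. Against this floor, Ly6i was 4.47-fold higher with Ifnb1eGFP supernatant and 3.05-fold higher with rIFNβ. These folds leave out counting error in the exposed libraries. The exact intervals of the ratio of summed counts had lower ends of 3.17 (14 against 0 counts) and 2.05 (10 against 0 counts). In the fit without a filter the adjusted p of Ly6i was 0.0122 and 0.0304 (edgeR). Its share in the counts of Ly6a and Ly6i together was 0.0554% to 0.329% in the exposed libraries.

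Ly6e and Ly6a, which reached the count filter in 6 and 5 of the 6 unexposed libraries and in every exposed one, were called higher in both comparisons at an adjusted p of at most 0.05, as were 30.1% of all genes tested with Ifnb1eGFP supernatant and 30.7% with rIFNβ. They were also past the thresholds of the study's methods (LFC of 2 or more, adjusted p of 0.01 or less), where 2.77% of all genes were past them and higher with Ifnb1eGFP supernatant, and 2.99% with rIFNβ. For both genes the exposed libraries lay above the unexposed ones without overlap, as did 32.4% and 36.4% of all genes. Ly6c1 reached the filter in 5 exposed and 0 unexposed libraries, so it could enter the test only by being high with IFNβ, and its calls are not read against these shares. Ly6c1 did not keep the stricter call without any single eGFP supernatant library (adjusted p of 0.0254, 0.0204 and 0.0197, edgeR) or without replicate 1 of Ifnb1eGFP supernatant (0.0223). For rIFNβ the call went without replicate 2 or 3 of the untreated control (0.0251 and 0.0284) or replicate 1 of rIFNβ (0.0239). In bulk RNA, more RNA per cell and a larger share of cells with a transcript cannot be told apart.

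Whether Ly6a rose more than Ly6e was tested on the log2 ratio of both genes within each library (with a prior of 2 counts), by an exact two-sided permutation test over 400 relabellings, for which the smallest p is 0.005. The ratio rose by 0.80 with IFNβ (exact p = 0.055, adjusted over 10 pairs of members p = 0.0688), which did not pass. It passed without replicate 1 of the untreated control (adjusted p = 0.0438, exact permutation) and without its replicate 3 (0.05). With the mean of each replicate number taken off first, the adjusted p was 0.0438 in the same permutation. Labels were then still permuted across replicate numbers, so that p is not exact and nothing is read from it. Over the alternatives tried the adjusted p ran from 0.0438 to 0.15. The other 9 pairs hold Ly6c1, Ly6c2 or Ly6i, whose unexposed counts of 0 to 3 let the prior set the ratio, and nothing is read from them. The fitted LFCs from the fit with no filter stand in their place. For Ifnb1eGFP against eGFP supernatant they were 7.57 (SE 0.260) for Ly6a, 5.86 (SE 0.147) for Ly6e, 5.17 (SE 1.47) for Ly6i, 4.83 (SE 0.991) for Ly6c1 and 4.21 (SE 0.979) for Ly6c2. Those of the low members have wide errors, that of Ly6i is set against libraries at 0 and is no bound, and the differences between these LFCs were not tested.

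The source of IFNβ made no called difference to a member. Between Ifnb1eGFP supernatant and rIFNβ the LFC of Ly6e was -0.03 (95% interval -0.33 to 0.27, adjusted p = 0.963, edgeR). That of Ly6a was 0.45 (0.06 to 0.85, adjusted p = 0.581, unadjusted p = 0.0437), with overlapping libraries. Ly6c1 differed by -0.33 (-1.75 to 1.09, adjusted p = 0.892), which turned to 0.73 without replicate 1 of rIFNβ. Thus 0 of 3 members were called, beside 0.16% of all genes in either direction, and none of the 3 was without overlap, beside 12.8% of genes. Summed counts of Ly6c2 (ratio 1.26, 95% exact interval 0.682 to 2.38) and Ly6i (1.31, 0.541 to 3.30) were compatible with a difference in either direction. A member for which the test fails is not shown to be equal, and the intervals of Ly6c1, Ly6c2 and Ly6i are wide.

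The eGFP supernatant by itself was compared with plain medium to see what the melanoma cell medium does without Ifnb1. Ly6e was 1.46-fold higher (LFC 0.54, SE 0.165, unadjusted p = 0.00735) and its 3 libraries did not overlap those of the untreated control, but it was not called (adjusted p = 0.319, edgeR). DESeq2 called it (LFC 0.54, adjusted p = 0.0487). Without replicate 2 of the eGFP supernatant, the library with raised interferon-stimulated genes, the LFC was 0.29 (adjusted p = 0.698, edgeR). Ly6a (LFC -0.55, SE 0.599, adjusted p = 0.948) and Ly6c1 (LFC -0.66, SE 2.07, adjusted p = 0.997) were not called either. Here 0 of 3 members were called, beside 0.299% of all genes, and 1 of 3 did not overlap, beside 15.5% of all genes. The interaction of IFNβ and supernatant was not called for Ly6e (LFC -0.57, SE 0.226, unadjusted p = 0.0277, adjusted p = 0.926, edgeR), Ly6a (1.00, SE 0.633, adjusted p = 0.926) or Ly6c1 (0.34, SE 1.94, adjusted p = 0.98), and 0% of all genes were called. An unadjusted p under 0.05 was reached by 661 of the 15033 genes, and the smallest adjusted p of any gene was 0.297 (edgeR). Without replicate 2 of the eGFP supernatant the interaction of Ly6e was -0.32.

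**Figure D3:**
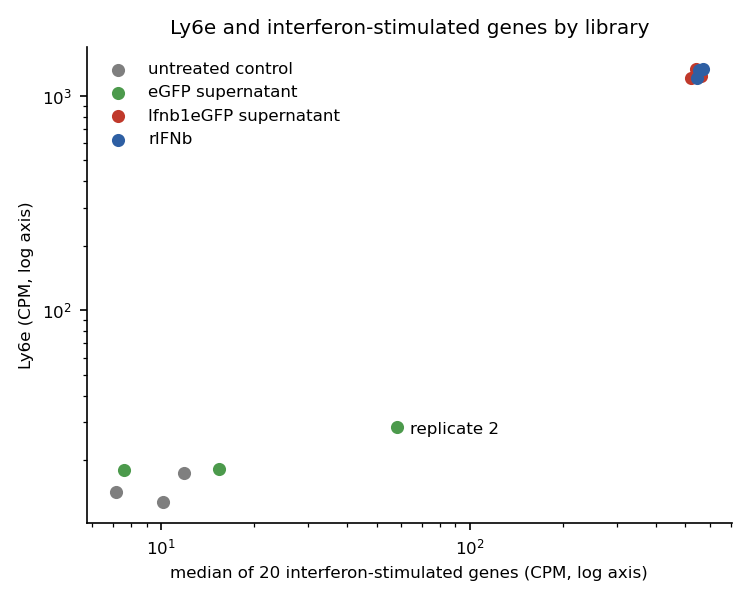
Level of Ly6e against the median level of 20 interferon-stimulated genes in each of the 12 libraries, both in CPM on log axes. Replicate 2 of the eGFP supernatant, at 58.4 and 28.4 CPM, lies apart from the other 5 unexposed libraries, and the 6 exposed libraries lie together at 520 to 568 CPM for the median gene.

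The interferon-stimulated genes give the setting of the Ly6e response. All 20 that were tested, among them Zbp1, a sensor of nucleic acids, and Oas1a, an oligoadenylate synthetase, were higher with Ifnb1eGFP supernatant and with rIFNβ, beside 30.1% and 30.7% of all genes. Their median LFC was 4.52 and 6.13, and without replicate 2 of the eGFP supernatant the first was 6.00. In the library that stands apart, replicate 2 of the eGFP supernatant, there were 28.4 CPM of Ly6e where the other libraries of the group held 18.2 and 17.9 CPM. Ly6a was at 0.268 CPM in replicate 2, where the other libraries held 0.354 and 0.251 CPM. Over the 12 libraries the genes with log2 levels most like Ly6e were Oas1b (Pearson r = 0.999), the class Ib MHC gene H2-T22 (0.999) and Trim21, which encodes a cytosolic antibody receptor (0.999). For Ly6a they were Dpy19l3 (0.996), Poli (0.996) and H2-T10 (0.995). The libraries fall into exposed and unexposed ones, so 1742 genes had an r above 0.95 with Ly6e and 1500 with Ly6a. For the low members Ly6c1, Ly6c2 and Ly6i only 32, 5 and 11 genes did, and the counts are too sparse to rank them.

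Per length, the order of the members was the same with either source of IFNβ. As TPM (transcripts per 1000000 transcripts), computed from the counts and the merged exon length, Ly6e was at 13.2 ± 2.20 (SD, n = 3) in untreated control, 18.7 ± 4.97 in eGFP supernatant, 1178 ± 84.7 in Ifnb1eGFP supernatant and 1194 ± 76.2 in rIFNβ. Among all genes it had ranks 6485 and 5288 unexposed and 109 and 110 exposed. Ly6a was at 0.372 ± 0.222, 0.249 ± 0.0444, 51.7 ± 13.1 and 37.4 ± 8.48 TPM in the same order of conditions. In Ifnb1eGFP supernatant Ly6c1 had 0.751 ± 0.538, Ly6i 0.413 ± 0.295 and Ly6c2 0.277 ± 0.124 TPM, and with rIFNβ 0.933 ± 0.898, 0.299 ± 0.181 and 0.223 ± 0.160 TPM. With IFNβ, Ly6e stood above Ly6a, and Ly6a above the other 3, by more than their spread, whereas Ly6c1, Ly6i and Ly6c2 did not differ beyond theirs. The genes' levels were in this order also with the longest transcript as the length.

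Other genes of the family were mostly at or near 0 counts. Of 23 further Ly6 genes listed, 15 had at least 1 count in some library, and 3 were tested. Ly6m, a neighbour of Ly6e, was higher with Ifnb1eGFP supernatant (17, 11 and 20 counts against 1, 1 and 0, LFC 4.28, adjusted p = 0.000117, edgeR). With rIFNβ it had 10, 16 and 13 counts against 0 in every untreated control library (adjusted p = 7.45e-05, edgeR). This was 11.9-fold higher against the floor, and the exact interval of the ratio of summed counts had a lower end of 9.24. Neither Ly6m nor Ly6g6d reached the filter in any unexposed library, so both could enter the test only through libraries with IFNβ. Ly6g6d, from the class III region of the MHC on another chromosome, rose from 0.191 ± 0.0637 to 0.534 ± 0.0761 CPM (LFC 1.47, adjusted p = 0.00121) and with rIFNβ from 0.190 ± 0.0563 to 0.586 ± 0.00627 CPM (LFC 1.59, adjusted p = 0.000724). Lynx1, which encodes a modulator of nicotinic acetylcholine receptors, was at 1.61 ± 0.426 and 1.36 ± 0.264 CPM in eGFP and Ifnb1eGFP supernatant and was not called in either comparison (LFC -0.25, adjusted p = 0.438, and LFC 0.02, adjusted p = 0.964). Of those not tested, Ly6g5b had 1 to 13 counts per library, and Ly6a2, Ly6d, Ly6g, Ly6g6c, Ly6g6e, Ly6g6f, Ly6k, Psca, Slurp1, Slurp2 and Gpihbp1 had at most 3 in any library.

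**Figure D4:**
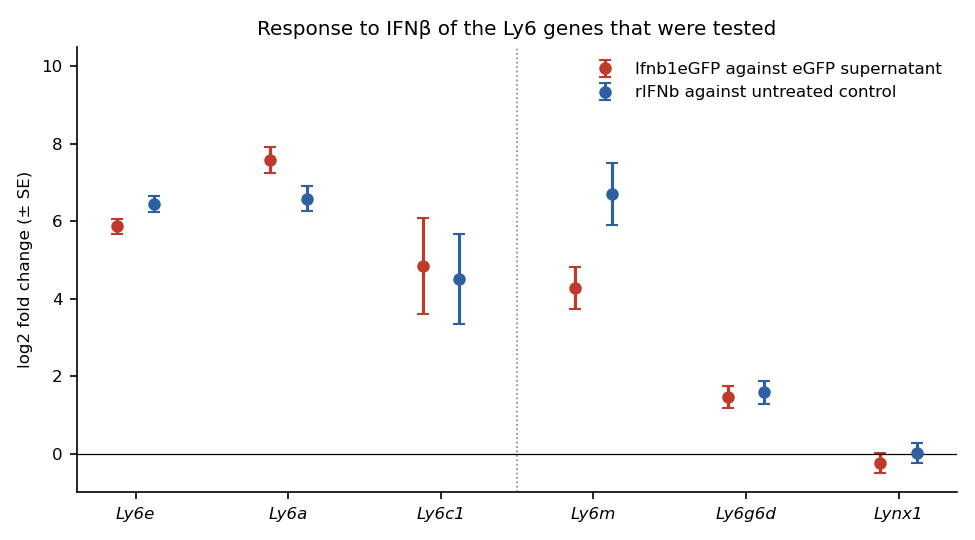
Log2 fold change with its SE for the 3 members tested (left of the dotted line) and 3 further Ly6 genes tested, for both comparisons with IFNβ. Ly6a and Ly6e lie above 5.8 in both, Ly6g6d below 1.6 and Lynx1 near 0, and the value of Ly6m with rIFNβ is set against libraries at 0.

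The genes around the cluster were read as a description of the region. Within 500 kb on either side of the cluster 52 further genes are annotated, 24 had a count and 7 were tested. Ly6m, at -78.0 kb from Ly6e, and the lncRNA Gm39556, at -28.1 kb on the strand of Ly6e, were higher in both comparisons, and 0 of the 7 were lower. With Them6, this made 2 of 7 higher with Ifnb1eGFP supernatant and 3 of 7 with rIFNβ, beside 30.1% and 30.7% of all genes, and Ly6m and Gm39556 reached the filter in 0 unexposed libraries. Gm39556 had 0, 0 and 2 counts in the untreated control and 57, 54 and 61 with rIFNβ (LFC 6.10, adjusted p = 1.41e-05, edgeR), and 0, 0 and 2 in eGFP supernatant and 51, 31 and 73 in Ifnb1eGFP supernatant (LFC 5.95, adjusted p = 1.86e-05). Them6 was called with rIFNβ alone (LFC 0.67, adjusted p = 0.0149, against 0.35, adjusted p = 0.175), and the difference between the comparisons was not tested for it. These neighbours were chosen by position, and Gm39556 and Them6 were named after their values were seen. The lncRNA Gm28068 runs opposite to Ly6a and overlaps it, with 0 to 2 counts in unexposed and 6 to 18 counts in exposed libraries. The strand setting of the counting was not given in the sources used here, so reads of Gm28068 and Ly6a cannot be told apart for certain. The same holds for Ly6e, which the lncRNA Gm62552, not analysed here, overlaps on the opposite strand.

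**Figure D5:**
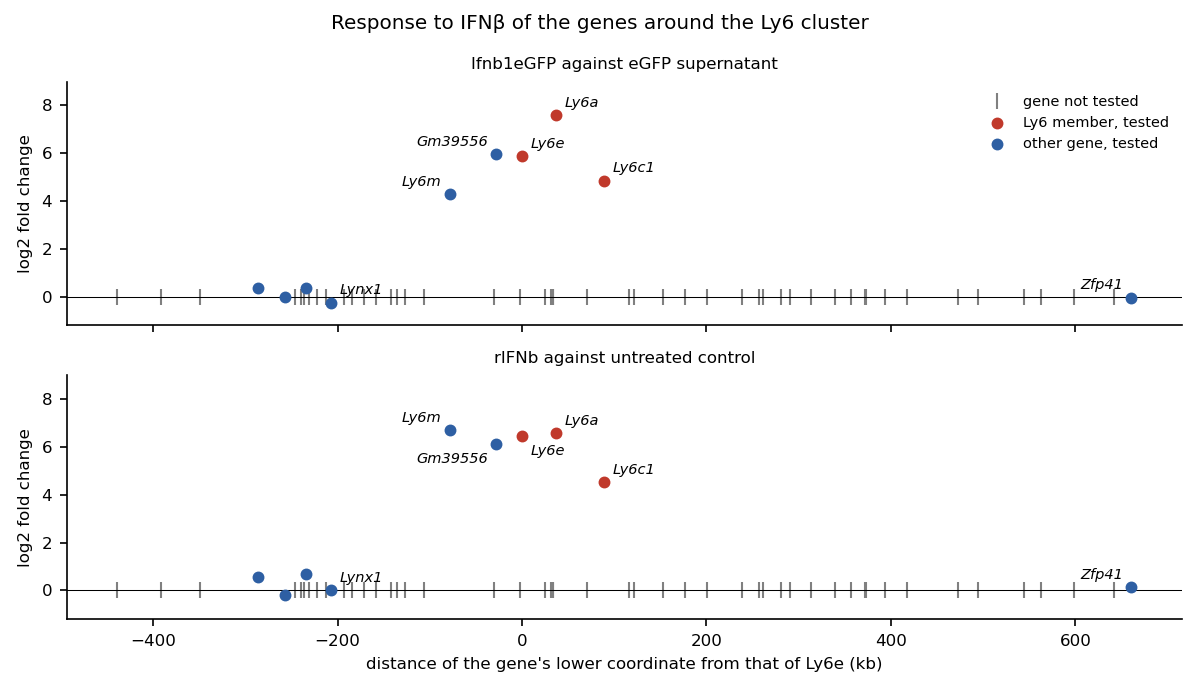
Log2 fold change of the genes within 500 kb of the Ly6 cluster against the distance from Ly6e in kb, for both comparisons with IFNβ. Circles are the 10 genes tested, of which 3 are members, and grey ticks are genes not tested. High values are seen from Ly6m (at -78.0 kb) to Ly6c1 (at 89.0 kb), and the other 5 genes tested lie between -0.25 and 0.67.

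Genes of the GPI machinery, on which Ly6 proteins depend, moved in both directions. Of 34 genes tested from a list for GPI anchor assembly, 10 were higher and 8 lower with Ifnb1eGFP supernatant (median LFC 0.09), and 14 higher and 7 lower with rIFNβ (median LFC 0.11), where 30.1% and 30.7% of all genes were higher and 25% and 24.6% lower. The list also holds Pigbos1 and Gpld1, which are not assembly genes, and neither was called in either comparison. Mppe1, which trims the anchor, rose 1.02 and 1.05 on the log2 scale (adjusted p = 4.79e-08 and 3.53e-08, edgeR), and the mannosyltransferase gene Pigv rose by 1.00 and 1.11 (adjusted p = 6.13e-07 and 2.52e-07). Of 22 other GPI-anchored proteins tested, 8 were higher in each comparison, and 9 and 10 were lower. Bst2, an antiviral tether, rose from 77.3 ± 20.2 to 505 ± 73.2 CPM between eGFP and Ifnb1eGFP supernatant (LFC 2.71), while Cd52 fell by 1.07 on the log2 scale. Of 23 other genes with a uPAR-type domain 4 were tested, with 2 higher and 2 lower with Ifnb1eGFP supernatant and 1 higher and 2 lower with rIFNβ. Plaur, the urokinase receptor gene, fell by 2.16 on the log2 scale in both comparisons (adjusted p = 1.84e-06 and 1.62e-06, edgeR), and Bambi, a decoy receptor of the TGF-beta pathway, fell by 1.41 and 1.37. Cd59a, a complement inhibitor, rose by 0.40 and 0.44.

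Genes that accompany Ly6C in inflammatory monocytes split in direction. Of 13 tested, 6 were higher and 7 lower in both comparisons, where 30.1% and 30.7% of all genes were higher and 25% and 24.6% lower. Ms4a4c, a membrane gene of interferon-exposed monocytes, rose from 0.844 ± 0.900 to 528 ± 94.9 CPM with Ifnb1eGFP supernatant (LFC 9.27, adjusted p = 9.87e-09, edgeR, and 10.6 without replicate 2 of the eGFP supernatant). Ccr2, the chemokine receptor by which these monocytes leave the marrow, fell by 3.00 with Ifnb1eGFP supernatant and by 3.36 with rIFNβ on the log2 scale (adjusted p = 4.82e-08 and 2.43e-08, edgeR). Fn1, which encodes fibronectin, fell by 4.29 and 4.57. Of 12 genes of Ly6C-low monocytes tested, 4 were higher and 5 lower with Ifnb1eGFP supernatant, and 5 were higher and 5 lower with rIFNβ, beside the same shares of all genes.

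Markers of cell types that carry Ly6a or Ly6C were read alongside, and their part in the results was not tested. The summed level of 11 endothelial markers was 196 to 250 CPM in unexposed and 40.5 to 49.0 CPM in exposed libraries. Most of that sum was Vwf (LFC -2.82 with Ifnb1eGFP supernatant and -2.90 with rIFNβ), and the 8 endothelial markers tested went both ways. With Ifnb1eGFP supernatant 3 were higher and 5 lower, and with rIFNβ 2 were higher and 4 lower, with Pecam1 rising by 1.49 and 1.64 and Kdr by 2.25 and 2.59. The summed level of 11 stem and progenitor markers was 168 to 187 CPM unexposed and 154 to 190 CPM exposed, and of 7 tested 1 was higher in each comparison and 2 and 3 were lower. The sum of 14 T and NK cell markers was 5.40 to 6.75 CPM unexposed and 8.64 to 10.8 CPM exposed, with 9 of the 14 at no more than 3 counts in any library. Most of it was Cd4, which rose by 1.11 and 1.00, whereas the median LFC of the 4 tested was -0.31 and -0.70. The sum of 13 neutrophil markers was 13.7 to 21.8 CPM unexposed and 4.70 to 11.5 CPM exposed, and 6 of the 13 had no more than 3 counts, while the 3 tested were lower in both comparisons. For 10 dendritic cell markers it was 102 to 153 CPM unexposed and 563 to 711 CPM exposed. Most of the exposed sum was Bst2, with means of 505 CPM with Ifnb1eGFP supernatant and 570 CPM with rIFNβ. Of the 5 tested, 2 (Bst2 and Tcf4) were higher in both comparisons and 2 and 1 were lower. Their median LFC was 0.13 and -0.04, and Flt3 had at most 1 count per library. The 9 B cell markers summed to 20.7 to 38.7 CPM unexposed and 9.88 to 11.8 CPM exposed. That fall was in Ighm (LFC -6.48 and -6.29), while 2 of the 4 B cell markers tested, Cd79b and Pax5, were higher in both comparisons. For 9 fibroblast markers it was 44.7 to 106 CPM unexposed and 52.9 to 84.0 CPM exposed, and for 10 melanocyte and melanoma markers, of which 5 had no more than 3 counts, 153 to 169 CPM unexposed and 88.7 to 103 CPM exposed. The untreated control, which had received no supernatant, held 166 to 169 CPM of the latter. Of 3 melanocyte and melanoma markers tested, 1 was lower and 2 were not called in each comparison, beside 25% and 24.6% of all genes lower. The 12 M2 markers summed to 958 to 1193 CPM unexposed and 991 to 1206 CPM exposed, and 7 erythroid markers to at most 0.223 CPM. The similar M2 sums hide changes in both directions. Of 10 M2 markers tested, 3 were higher and 3 lower in each comparison, where 30.1% and 30.7% of all genes were higher and 25% and 24.6% lower.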

How the data were processed

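RNA of 12 libraries (4 conditions, 3 libraries each, grouped by the labels) was sequenced after a stranded total RNA preparation. The authors deposited expected counts per Ensembl gene, as estimated by RSEM 1.3.3 according to the submitters' processing notes, in which reads shared by similar genes are divided between them. Of the values above 0, 32.0% were not whole, and all were rounded. The genome of the count table is named in the notes by 2 build names, so gene positions were taken from the GENCODE annotation of GRCm39 by gene identifier. The aligner and the strand setting of the counting are not given in the sources used here.

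Genes were filtered by condition with filterByExpr, which left 15033 of 56748. Fits over all 12 libraries used edgeR 4.0.16 in R 4.3.3 (TMM scaling, quasi-likelihood test, condition as the only term), with Benjamini-Hochberg adjustment over all genes tested, and were tested on simulated counts. A gene was called at an adjusted p of at most 0.05. Each SE was derived from the LFC and its F statistic, and intervals are 1.96 SE either way. Where a group was at 0, a floor of 3 counts over the group was used. Ratios of members used a prior of 2 counts. Libraries of a condition differed by more than sampling noise, and each counted as 1 replicate. Sequences were compared with Biopython 1.88 and figures drawn with matplotlib 3.10.9.

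The members, gene lists and tests were chosen with earlier results of these data known. The named genes are the 5 members, the detected genes among other Ly6 genes, up to 4 genes of each further list with the smallest adjusted p for Ifnb1eGFP against eGFP supernatant, defining markers near 0, and the 3 genes most like each member. The alternatives were other scalings (RLE factors, library totals), DESeq2 1.42.0, no filter, the compared conditions alone, the replicate block, near-identical copies summed, a looser threshold, other priors and gene lengths, and each library left out in turn. A planned test of the share of Ly6c1 against Ly6c2, and of Ly6i against Ly6a, was not run, because 1 unexposed library had 0 counts of both Ly6C genes and the others at most 3.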

Additional observations from a re-analysis of the deposited data

How the results depend on the processing

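Under every scaling, filter and tool tried and without any single library, Ly6e and Ly6a remained called higher with IFNβ from both sources. Ly6c1 did so wherever it was tested, and with rIFNβ it was not tested in the fit of the compared conditions alone, which called 2 members. DESeq2 called 5 members for Ifnb1eGFP against eGFP supernatant, and the fit with no filter, over 30347 genes, called 5 in both comparisons. The shares of all genes called in these fits are not given here, so these counts are not read as a result about the members. Ly6c1, Ly6c2 and Ly6i reached the filter in 0 unexposed libraries, so under the filter only libraries with IFNβ could bring them into the test. Their calls there say nothing of stability. Leaving out libraries gave 3 to 4 members called, and 2 to 4 past the stricter thresholds. Among all genes, in either direction, 7339 to 8678 were then called with Ifnb1eGFP supernatant and 7479 to 8824 with rIFNβ. Past the stricter thresholds there were 762 to 874 and 844 to 887 genes. At an LFC of 1 and an adjusted p of 0.05, 2317 and 2400 genes passed (811 and 867 at the stricter thresholds).

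For Ifnb1eGFP supernatant against rIFNβ, 24 genes were called, 116 with DESeq2, 41 with no filter, 48 with the replicate block and 2 with the compared conditions alone, and 4 to 1051 without single libraries, the highest without replicate 2 of Ifnb1eGFP supernatant. Past the stricter thresholds there were 0, with 1 in DESeq2 and 4 at the looser ones. For eGFP supernatant against untreated control, 45 genes were called, 205 with DESeq2 (among them 1 member, Ly6e), 75 with no filter, 122 with the replicate block, 22 with the compared conditions alone and 16 to 76 without single libraries. Past the stricter thresholds there was 1, with 0 for library totals and for the compared conditions alone, 3 in DESeq2, 6 at the looser ones and 0 to 1 without single libraries. For the interaction DESeq2 called 11 genes and the fit with no filter 1. The cause of these changes was not tested.

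Directions turned only for values that were not called. Lynx1 with rIFNβ went from 0.02 to -0.0286 with RLE factors, -0.0246 in DESeq2, -0.0195 with the compared conditions alone and -0.13 to 0.20 without single libraries. Ly6c1 ran, without single libraries, from -1.07 to 0.73 between the sources of IFNβ, from -1.31 to 2.66 for eGFP supernatant against untreated control, and from -2.99 to 1.40 for the interaction. With the longest transcript as the length, Ly6e was at 18.8, 27.0, 1694 and 1715 TPM in the untreated control, with eGFP supernatant, with Ifnb1eGFP supernatant and with rIFNβ. With protein-coding genes alone in the total, it was at 1309 and 1329 TPM with IFNβ.

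For Ly6a against Ly6e the adjusted p of 0.0688 (exact permutation) became 0.0438 with the mean of each replicate number taken off first. Labels were then still permuted across replicate numbers, so the second value is not exact and comes from no blocked test. Over all 10 pairs of members 7 passed, 6 with a prior of 0.5 counts, but 9 of the pairs hold a member whose ratio the prior sets, so these counts say nothing of stability. The median LFC of the interferon-stimulated genes for Ifnb1eGFP against eGFP supernatant went from 4.52 to 6.00 without replicate 2 of the eGFP supernatant, an alternative chosen after seeing the data. No label says what a replicate number shares. Over 18 pairs of same-numbered libraries the correlation of deviations was 0.148 on average and at least 0.0582, and 35 of 36 matches were best with the library's own number. Over 36 pairs with different numbers the correlation averaged -0.0742. Same-numbered libraries were thus more alike, and what they share was not tested. The alternatives of the share test were not run. Depth limited Ly6c1, Ly6c2 and Ly6i, with 0 to 3 counts in each unexposed library.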
